A study of Homo sapiens with 7 samples.

Results

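H3K27me3 was profiled by ChIP-seq in HCT116 cells, an established human colorectal carcinoma line, and domains that the calls of both shUHRF1 clones shared were compared by length. Described here are the short clone-shared H3K27me3 domains of chromosomes 1 to 22, 991 of the 1844 shared domains in the deposited set. They were chosen by the length of the called domain, under 100 kb, so length itself is a description and not a result. Of the other shared domains, 689 on chromosomes 1 to 22 were 100 kb or longer, 161 lay on X, of which 144 were under the limit, and 3 lay on contigs. Both clones carried a doxycycline-inducible short hairpin RNA against UHRF1, a factor that recruits the maintenance DNA methyltransferase to newly copied DNA, and both were kept without doxycycline, labelled as the baseline at day 14. There were 2 H3K27me3 samples of Clone 3, 2 H3K27me3 samples of Clone 6, 2 H3K9me3 samples of Clone 3 and 1 input of Clone 3. Each clone is a single clonally expanded population, and the study's methods call its samples biological replicates. The deposited set of a clone keeps the intervals on which the calls of its replicates agreed and gives no positions per sample, so no value below has a replicate error and no test between groups could be run. A clone domain is thus itself an overlap of calls, and its length can be set by either sample. Exact binomial 95% intervals are given for shares and cover counting error only. The differences below are described and were not tested.

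H3K27me3 is laid down by Polycomb repressive complex 2 through its catalytic subunit EZH2 and is read by Polycomb repressive complex 1. The mark is known for covering the start sites of silent developmental regulators, many of which sit in CpG islands, and for forming broad domains over silent, gene-poor chromatin. In cancer cells such broad domains are known to cover partially methylated DNA, where CpGs far from their neighbours lose methylation most readily. CpG density and CpG spacing were therefore computed for each short domain beside its genes.

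Sequences from 4 start sites and from the centre of 1 domain show how wide the range of CpG content within the short domains was. Each run is 200 bases of hg38, printed 5′ to 3′ with every CpG in capitals. The first 4 are the bases just before the annotated start of BSX (chr11:122981835-122982034, minus strand), a homeobox factor of the hypothalamus, NEUROG3 (chr10:69573423-69573622, minus strand), the basic helix-loop-helix factor that starts the endocrine lineages of gut and pancreas, FGF12 (chr3:192767765-192767964, minus strand), an intracellular member of the fibroblast growth factor family, and OR11G2 (chr14:20190696-20190895, plus strand), an olfactory receptor. No annotated exon overlapped these windows. The NEUROG3 run held 22 CpGs and 74.0% GC, the BSX run 11 and 66.5%, the OR11G2 run 1 and 50.0%, and the FGF12 run 0 and 27.5%.
BSX: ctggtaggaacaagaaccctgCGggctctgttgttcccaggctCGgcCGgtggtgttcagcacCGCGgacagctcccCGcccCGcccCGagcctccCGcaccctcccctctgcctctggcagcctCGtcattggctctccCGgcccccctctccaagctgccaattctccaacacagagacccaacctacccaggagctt
NEUROG3: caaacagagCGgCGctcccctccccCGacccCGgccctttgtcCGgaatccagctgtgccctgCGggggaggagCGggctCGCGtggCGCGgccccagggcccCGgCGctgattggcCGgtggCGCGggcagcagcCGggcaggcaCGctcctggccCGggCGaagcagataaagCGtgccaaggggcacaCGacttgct
FGF12: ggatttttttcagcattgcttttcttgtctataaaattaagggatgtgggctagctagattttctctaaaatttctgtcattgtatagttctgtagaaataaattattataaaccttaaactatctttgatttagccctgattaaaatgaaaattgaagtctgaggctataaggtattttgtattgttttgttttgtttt
OR11G2: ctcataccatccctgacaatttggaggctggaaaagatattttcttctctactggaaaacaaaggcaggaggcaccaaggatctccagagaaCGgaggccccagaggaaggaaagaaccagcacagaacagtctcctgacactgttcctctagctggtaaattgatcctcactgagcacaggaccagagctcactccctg

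The last run came from the centre of the short domain with the highest CpG density (chr12:34352401-34352600, plus strand). This window held 9 CpGs with 63.0% GC and no annotated exon.
Highest CpG density: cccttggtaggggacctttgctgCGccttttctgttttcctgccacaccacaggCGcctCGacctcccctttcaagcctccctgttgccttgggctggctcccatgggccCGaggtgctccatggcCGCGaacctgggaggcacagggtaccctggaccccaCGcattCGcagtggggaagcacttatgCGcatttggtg

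The short domains made up 59.0% of the shared domains on chromosomes 1 to 22 but only 45.1 of their 285.9 Mb (15.8%). They covered 1.64% of the gap-free sequence of these chromosomes, against 8.74% for the long shared domains. Their median length was 40 kb, with quartiles of 26 and 62 kb. There were 128 under 20 kb and 15 under 10 kb. The shortest, of 1 kb on chromosome 8 (92530001 to 92531000), held 0 CpGs and was a whole Clone 3 domain inside a Clone 6 domain of 474 kb. At the limit, 4 domains measured 99 kb, among them one with the start of HSD17B2 on chromosome 16 (82016001 to 82115000, 8.91 CpGs per kb), one with the start of DYNC1I1 on chromosome 7 (95719001 to 95818000, 7.45 CpGs per kb) and one with no coding start on chromosome 16 (74183001 to 74282000, 9.54 CpGs per kb). Just outside it, domains of 100 kb on chromosomes 12, 13 and 15 had 7.05, 6.93 and 9.94 CpGs per kb, and the one on chromosome 15 held the starts of ACTC1 and GJD2. The domains on either side of the limit did not form separate ranges of CpG density.

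**Figure D1:**
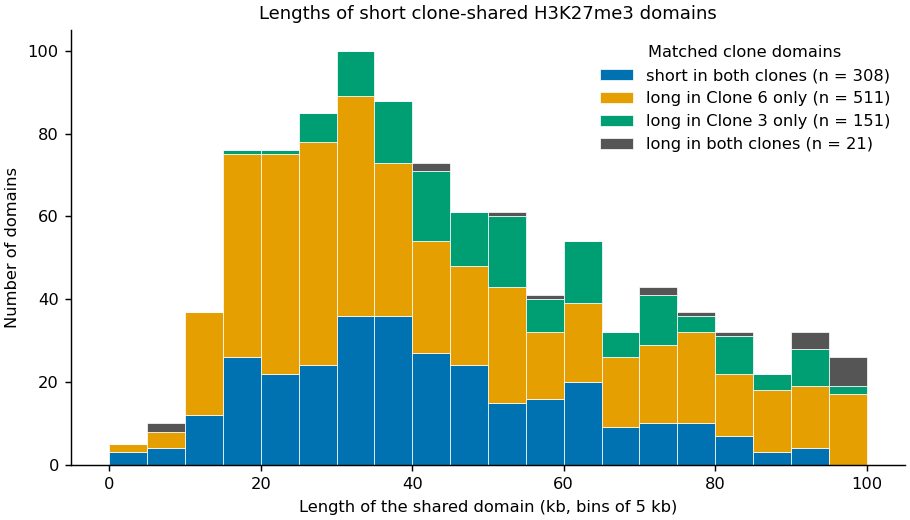
Number of short shared domains (vertical axis) by length in kb (horizontal axis, bins of 5 kb), stacked by whether the matched domains of Clone 3 and Clone 6 were themselves under 100 kb. Domains that were long in Clone 6 only (n = 511) make up the largest share of the whole set, and most of the domains between 10 and 30 kb.

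Most short shared domains were not short in both clones. Each one is the overlap of a domain in the Clone 3 set with a domain in the Clone 6 set, and in 308 (31.1%, 28.2 to 34.1) both matched domains were under 100 kb. In 511 (51.6%, 48.4 to 54.7) the Clone 6 domain was long and the Clone 3 domain was short, with medians of 354 and 37 kb. The reverse held in 151 (15.2%, 13.1 to 17.6), with medians of 288 kb in Clone 3 and 54 kb in Clone 6. In 21 (2.12%, 1.32 to 3.22) both were long and overlapped only in part. Both edges came from the Clone 3 domain in 592 (59.7%) and from the Clone 6 domain in 186 (18.8%), with 1 edge of each in 204 (20.6%) and identical edges in 9 (0.908%). The median short shared domain thus covered 100% of its Clone 3 domain and 36.9% of its Clone 6 domain. Over all short shared domains the overlap of the matched domains divided by their union had a median of 0.220, against 0.816 for long shared domains. It reached 0.5 in 28.2% of the short and 77.9% of the long ones. Because the limit was set on the overlap, a low value of this ratio in short domains is partly built into the choice.

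The domain calls of the clones differed in grid. All 1803 Clone 6 domains on chromosomes 1 to 22 began and ended on a multiple of 2 kb, against 576 of 2332 (24.7%) in Clone 3, where edges fell on any whole kb. Clone 6 domains had a median of 84 kb and 54.2% of them were under 100 kb, while Clone 3 domains had a median of 67 kb and 62.3% under 100 kb. The total lengths were 358.3 Mb in Clone 6 and 373.3 Mb in Clone 3. The grid of the calls and the clone cannot be told apart in these sets.

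Many neighbouring clone domains shared a deposited score. Each domain carries 2 scores, and 1726 Clone 3 domains (74.0%) had exactly the second score of a neighbouring domain, while 20 (0.9%) had the first score of a neighbour. In Clone 6, 540 domains (30.0%) had the first score of a neighbour and 66 (3.7%) the second. The files do not name the sample behind a score, and how neighbouring domains came to share one was not tested. Of the 511 short shared domains that were long in Clone 6 only, 459 (89.8%) lay in a Clone 3 domain with the second score of a neighbour, and of the 151 long in Clone 3 only, 105 (69.5%) lay in a Clone 6 domain with the first score of a neighbour. When neighbouring domains of a clone with an equal score were joined, a choice made after seeing the data, the Clone 3 interval reached 100 kb for 421 of the 511 (82.4%) and the Clone 6 interval for 103 of the 151 (68.2%). The short shared domains that were short in both clones then fell to 118 (11.9%), and those long in both rose to 639 (64.5%). Whether a short interval was particular to a clone or to 1 of its samples therefore cannot be told from the lengths.

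**Figure D2:**
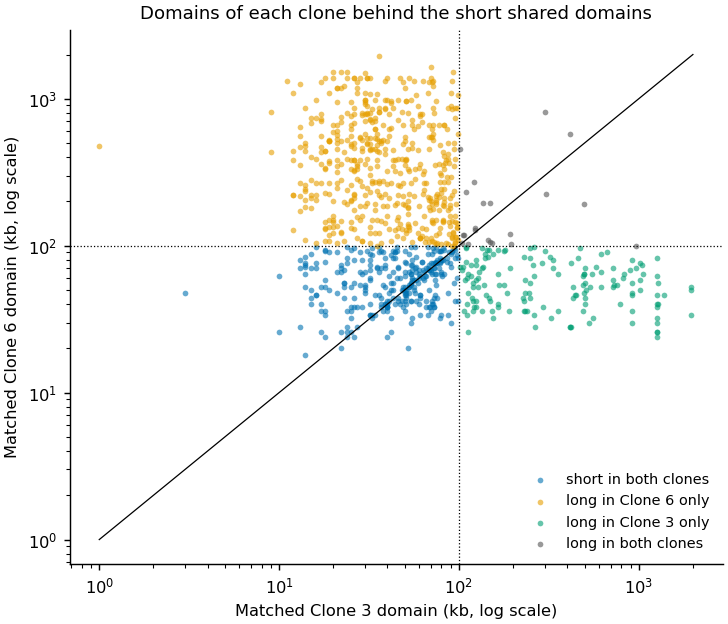
Length of the Clone 3 domain (horizontal axis, kb, log scale) against length of the Clone 6 domain (vertical axis, kb, log scale) for each short shared domain. Dotted lines mark 100 kb and the solid line equal lengths, and the upper left field, short in Clone 3 and long in Clone 6, holds 511 of the 991 points.

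Many short shared domains were neighbours within a single Clone 6 domain. There were 569 (57.4%) in a Clone 6 domain that held several shared domains, against 120 (12.1%) in such a Clone 3 domain, and 182 Clone 6 domains against 34 Clone 3 domains held more than 1 short shared domain. The nearest other shared domain lay a median of 14 kb away, and 580 short domains (58.5%) had one within 20 kb, while 53 had none within 1 Mb. The 500 stretches between shared domains inside these Clone 6 domains had a median of 11 kb and 11.1 CpGs per kb with 51.1% low-density CpGs, where a CpG counts as low-density when no other CpG lies within 20 bp of it. The short shared domains beside them had 9.56 CpGs per kb and 57.6% low-density CpGs. In the Clone 3 domains that held several, the order was the reverse, with 8.20 CpGs per kb and 61.9% low-density CpGs in 112 stretches against 8.71 and 58.6% in the short domains beside them. Sequence absent from the Clone 3 set within a Clone 6 domain was thus richer in CpGs than the shared pieces, and sequence absent from the Clone 6 set within a Clone 3 domain was poorer.

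The CD1 locus on chromosome 1 was one such domain. CD1A, CD1B, CD1C, CD1D and CD1E encode MHC class I-like molecules that present lipid antigens to T cells. A Clone 6 domain of 266 kb (158118001 to 158384000) spanned all 5 start sites. Clone 3 had 4 domains there, which carried 4 different first scores but a single second score, and the 4 shared domains of 64, 66, 21 and 41 kb held CD1D, then CD1A and CD1C, then CD1B, then CD1E, and together covered 72.2% of the Clone 6 domain. CpG density was 9.11, 6.48, 7.24 and 8.10 per kb in the same order. The start of SMIM42 lay in the Clone 6 domain but in none of the shared ones.

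LSAMP, which encodes a neuronal cell adhesion molecule, had 6 short domains within its body, 5 of them in 1 Clone 6 domain. That Clone 6 domain of 1328 kb on chromosome 3 (116208001 to 117536000) held 7 shared domains, 6 of them short, with lengths of 72, 91, 39, 11, 56 and 63 kb from left to right. The shared domains covered 36.1% of the Clone 6 domain, and the 7 Clone 3 domains that met it carried 4 different second scores. The one of 63 kb held the LSAMP start and ran past it, and the sixth domain within the gene, of 50 kb, lay outside this Clone 6 domain. PDPN, which encodes the lymphatic and epithelial surface protein podoplanin, lay in a Clone 6 domain of 380 kb on chromosome 1 (13366001 to 13746000) with 6 short shared domains of 25 to 51 kb. They covered 52.6% of it, and their starts were those of PRAMEF17, PRAMEF19, LRRC38 and PDPN, while the starts of PRAMEF20 and PRDM2 fell between them. Other Clone 6 domains with 6 short pieces held IRF8 on chromosome 16 (518 kb), a transcription factor of myeloid and B cells, and a group on chromosome 1 of 784 kb with OR10J1, CRP and APCS. The starts of OR10J1 and APCS lay in short pieces, while those of IRF8 and CRP lay in none. The largest number was in a Clone 3 domain of 1268 kb on chromosome 10 over TCERG1L (130322001 to 131590000), where 10 of 11 shared domains were short and together measured 404 kb.

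**Figure D3:**
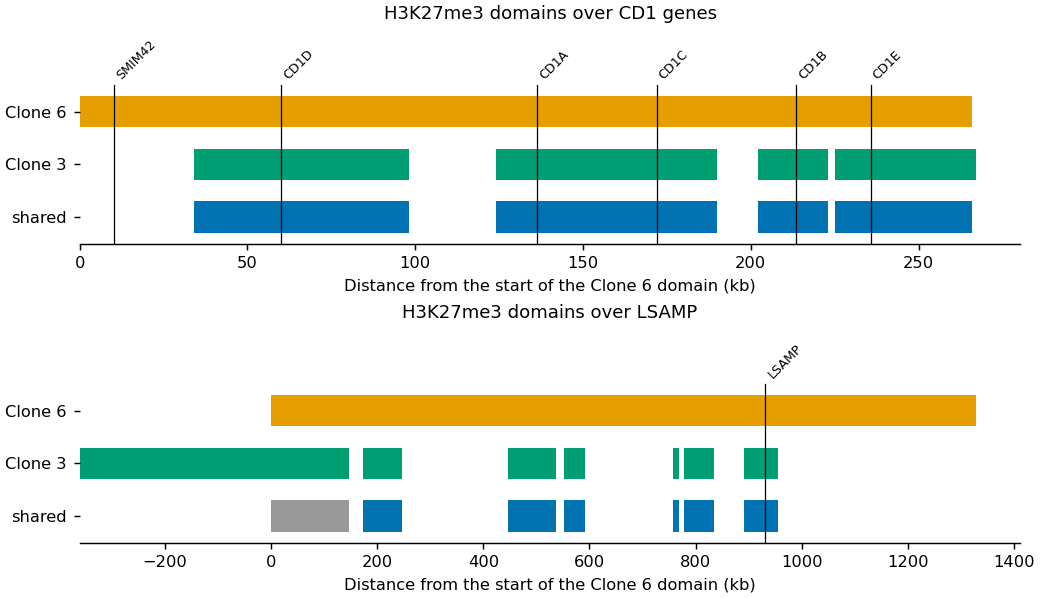
H3K27me3 domains over the CD1 genes (top) and LSAMP (bottom), by distance in kb from the start of the Clone 6 domain, with vertical lines at protein-coding start sites. Short shared domains are blue and a long one is grey, and in both loci 1 Clone 6 domain is met by several Clone 3 domains.

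CpG density was 9.61 per kb in the short shared domains, 8.67 per kb in the long ones and 10.1 per kb over chromosomes 1 to 22. The short domains no longer lay below chromosomes 1 to 22 when shared intervals no more than 20 kb apart were merged first, which left 487 domains under 100 kb with 10.4 per kb. The median short domain had 8.37 CpGs per kb (quartiles 6.51 and 11.9), and the median long one 8.16 (quartiles 6.88 and 10.0), so the 2 sets had close medians and the short one had the wider spread and the longer upper tail. Single short domains ran from 0, in the domain of 1 kb, to 40.6 CpGs per kb and long ones from 4.12 to 22.6. Above the value of chromosomes 1 to 22 lay 351 short domains (35.4%), against 23.8% of the long. A density counted over less sequence can vary more by length alone, so these spreads, ranges and shares are not like for like. Quartiles were 6.45 and 12.4 under 20 kb, 6.50 and 10.6 from 80 to 100 kb, and 7.05 and 9.48 from 500 kb up. The part that length has in the wider spread was not tested. Low-density CpGs were 56.7% of CpGs in the short, 61.0% in the long and 52.7% over chromosomes 1 to 22. GC content was 42.3%, 41.7% and 41.0%. Within chromosomes, the short domains had the higher CpG density on 18 of 22, the lower share of low-density CpGs on 21 and the lower CpG density than the chromosome itself on 16. On chromosome 3, which held 93 short domains, CpG density was 7.26 per kb in the short and 7.40 in the long, one of the exceptions. The highest value belonged to a domain of 95 kb on chromosome 12 (34305001 to 34400000) with 60.9% GC, no coding start, and a clone-shared H3K9me3 domain 4 kb away.

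Short domains called in a single clone lay on either side of the shared ones. The 639 short Clone 3 domains with no Clone 6 domain had 7.19 CpGs per kb and 65.6% low-density CpGs, and the 568 short Clone 6 domains with no Clone 3 domain had 13.0 and 48.4%. Medians per domain were 6.77 and 12.5 CpGs per kb. Among the shared ones, those with a long domain in Clone 3 only had 8.30 CpGs per kb, those with a long domain in Clone 6 only 10.2, those short in both 9.70 and those long in both 7.29. The side on which the short domain was cut therefore went with its CpG density, with the lower values where the Clone 3 set reached farther. The part that the grid of the calls or the scores shared by neighbours has in this was not tested.

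**Figure D4:**
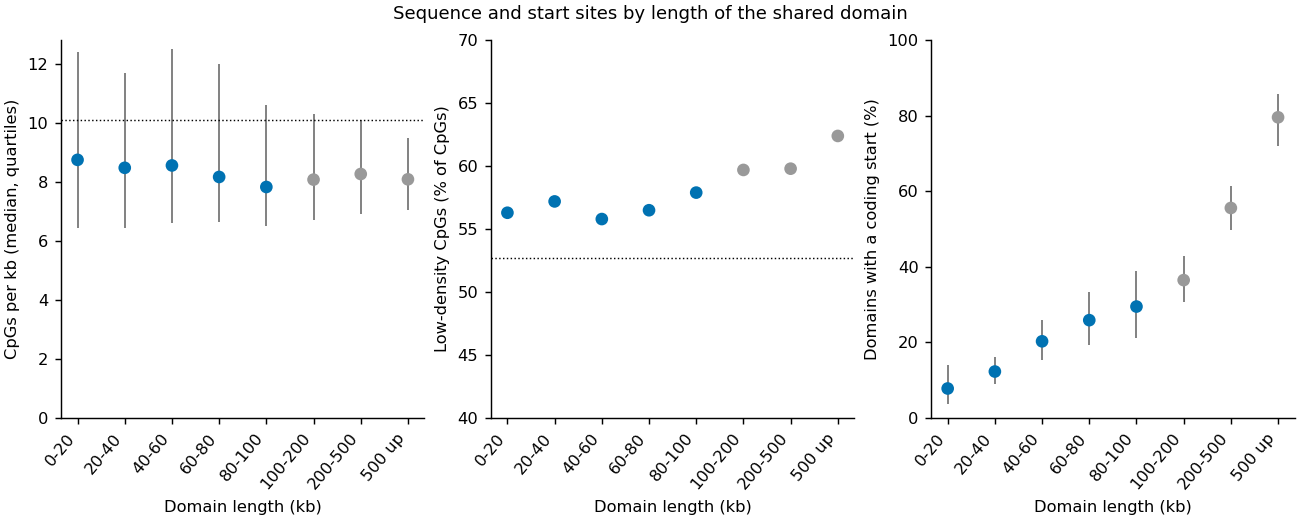
Shared domains by length class (horizontal axis, kb; blue under 100 kb, grey longer), with the median and quartiles of CpGs per kb (left), the low-density share of all CpGs in % (middle) and the percentage of domains with a protein-coding start site and its exact 95% interval (right). Dotted lines are chromosomes 1 to 22, at 10.1 CpGs per kb and 52.7%, and the share with a start rises from 7.81% under 20 kb to 79.6% from 500 kb up.

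Across length classes CpG density showed no step at the limit. It was 10.3 per kb under 20 kb, 9.64 from 20 to 40 kb, 9.91 from 40 to 60 kb, 9.57 from 60 to 80 kb and 9.14 from 80 to 100 kb, and then 8.87, 8.93 and 8.40 in the classes of 100 to 200 kb, 200 to 500 kb and 500 kb up. Low-density CpGs stood between 55.8% and 57.9% in the 5 short classes and between 59.7% and 62.4% in the 3 long ones.

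Around the centres of the short domains CpG density dipped by little. It was 9.50 and 9.47 per kb in the 5 kb on either side of the centre, and the 20 kb beside the domain edges had 10.6 per kb, against 10.3 beside the long domains. At 145 to 150 kb left of the centre Clone 3 domains still covered 41.1% of the sequence and Clone 6 domains 43.2%. Over the 2756.3 Mb of chromosomes 1 to 22, Clone 3 domains came to 373.3 Mb and Clone 6 domains to 358.3 Mb. Part of this coverage is built in. Of the short domains, 511 were cut from a Clone 6 domain of 100 kb or more, and neighbouring short domains count each other's clone domains.

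**Figure D5:**
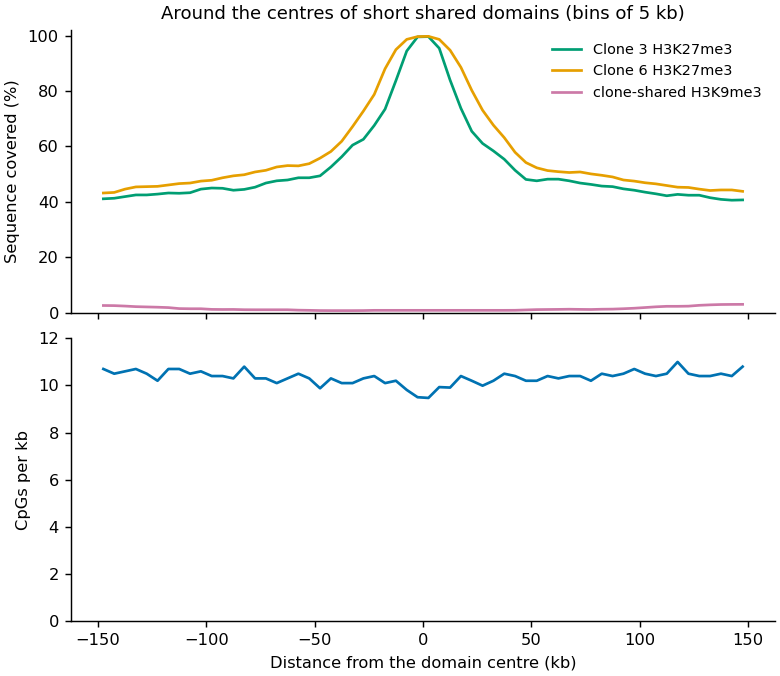
Share of sequence covered by domains in % (top) and CpGs per kb (bottom) by distance in kb from the centres of the 991 short shared domains, in bins of 5 kb. Coverage by both clones falls from over 99% at the centre and lies between 40 and 50% beyond 100 kb, and CpG density is lowest at the centre.

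H3K9me3, the mark of constitutive heterochromatin, covered little of the short domains. The clone-shared H3K9me3 domains, called in both clones, covered 351.3 Mb, or 12.75% of chromosomes 1 to 22. Of the 991, 8 (0.807%, 0.349 to 1.58) overlapped a clone-shared H3K9me3 domain, against 12 of 689 long ones (1.74%, 0.903 to 3.02), which offer more sequence to overlap. By length, 1.05% of the short and 0.827% of the long domains was covered. Within 100 kb of such a domain lay 46 short (4.64%) and 87 long (12.6%) ones, and the median distance was 2206 and 1507 kb.

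Chromosome 20 was the densest in short domains. Its 51 domains came to 79.8 per 100 Mb and covered 3.91% of its sequence. Chromosomes 16, 3 and 10 followed with 52.6, 46.9 and 46.5 per 100 Mb, and chromosomes 14 and 4 were lowest with 15.5 and 19.5. By number chromosome 1 held 95, and chromosome 22 held 12.

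Most short domains held no gene start. A protein-coding start site lay in 177 (17.9%, 15.5 to 20.4), 218 (22%) lay wholly inside a gene without its start, 74 (7.47%) covered part of a gene without its start, and 522 (52.7%) touched no protein-coding gene. In the long domains 53.6% held a start and 26.3% touched no gene, where each domain offers more sequence for a start. Per Mb the short domains held 5.06 coding starts and the long ones 3.30, with 6.93 over chromosomes 1 to 22. The short domains held more coding starts per Mb than the long ones on 18 of 22 chromosomes. Strict CpG islands (at least 500 bp, 55% GC and an observed-to-expected CpG ratio of 0.65) came to 9.18 per Mb in the short domains, 6.17 in the long ones and 13.3 over chromosomes 1 to 22, and at least 1 lay in 265 short domains (26.7%, 24.0 to 29.6). Short domains with a coding start had 10.6 CpGs per kb and 52.0% low-density CpGs, and those that touched no gene 9.13 and 58.6%. In the domains without a start the nearest one was a median of 83.9 kb away.

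There were 225 short domains within the body of 159 genes. Of these genes 112 held 1, 35 held 2, and 12 held 3 or more, which together had 48. LSAMP and PTPRN2, which encodes a receptor-type tyrosine phosphatase-like protein of secretory granules, held 6 each. NKAIN2 held 5, and ADARB2, GSG1L, ITGA9 and RIN2 held 4 each. CAMTA1, CPNE4, ENOX1, KIAA1217 and TCERG1L held 3 each. Among noncoding genes 305 lncRNA starts (1.66% of 18390) and 179 processed pseudogene starts (1.92% of 9302) lay in short domains, which cover 1.64% of the sequence. The 11 miRNA genes (0.625% of 1759) included MIR184, MIR7-2 and MIR296.

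The start sites of 228 of 19111 protein-coding genes (1.19%) lay in short shared domains, and those of 794 (4.15%) in long ones. These start sites were poorer in CpGs than most. In the 2 kb around the start the median was 13.5 CpGs per kb for genes in short domains, 16.5 in long ones and 45.5 for all protein-coding genes, and 40 or more per kb were found at 69 starts (30.3%) in short domains against 34.3% in long ones and 58.1% of all. The genes thus fell into a CpG-rich minority and a majority without a CpG-rich start, and the gene families below lie largely in one or the other.

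Transcription factors of development were among the CpG-rich ones. Of 140 homeobox genes outside the HOX clusters, 7 (5.00%, beside 1.19% of all genes) started in a short domain, and 15 (10.7%, beside 4.15%) in a long one. They lay in 7 different domains, and among them were BSX, MEIS1, POU3F2, POU4F2 and VSX1. BSX, whose promoter is printed above, lay 0.833 kb from the centre of a domain of 46 kb (chromosome 11, 122958001 to 123004000) that was the whole Clone 6 domain and sat inside a Clone 3 domain of 61 kb, with 16.8 CpGs per kb and 35.5% low-density CpGs. POU4F2, a factor of sensory neurons and retinal ganglion cells, lay in a domain of 26 kb (chromosome 4, 146628001 to 146654000) with 21.1 CpGs per kb, inside 42 kb in Clone 3. MEIS1, a cofactor of HOX proteins, lay in a domain of 47 kb (chromosome 2, 66401001 to 66448000) with 18.8 CpGs per kb, where Clone 3 had 184 kb and Clone 6 48 kb. At BSX and POU4F2 the domains of both clones were under 100 kb, and at MEIS1 the Clone 3 domain was longer. POU3F2, a neural factor, started at the very edge of a domain of 17 kb with 30.0 CpGs per kb, where a Clone 3 domain of 412 kb met a Clone 6 domain of 28 kb.

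The counts of other regulator lists in short domains were 0 or 1, beside 1.19% of all genes in short and 4.15% in long domains, and are too small to set the lists apart from that background. Of 58 basic helix-loop-helix genes 1 (1.72%) started in a short domain and 7 (12.1%) in long ones. That gene was NEUROG3, in a domain of 57 kb (chromosome 10, 69550001 to 69607000) that was the whole Clone 3 domain within 70 kb in Clone 6, with 13.6 CpGs per kb over the domain and 66.0 at the start. Of 80 FOX, SOX, TBX and GATA genes 0 started in a short domain and 8 in long ones. Of 39 HOX cluster genes 0 started in either, and 2 lay in a Clone 6 domain. Of 94 potassium channel genes 0 started in a short domain although 16 (17.0%) did in long ones.

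Outside the lists, WT1, MYCN and RSPO1 were CpG-rich starts in short domains and were named after their values were seen. WT1, a zinc finger factor of kidney and gonad development, lay in a domain of 74 kb within 75 kb in Clone 3 and 76 kb in Clone 6, with 78.5 CpGs per kb at the start. MYCN, a proto-oncogene of the MYC family, lay in a domain of 49 kb that was all of a Clone 3 domain but a small piece of 492 kb in Clone 6, with 61.0 CpGs per kb at the start. RSPO1, a secreted enhancer of WNT signalling, lay 0.109 kb from the centre of a domain of 78 kb, within 78 kb in Clone 3 and 82 kb in Clone 6.

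Of 76 genes on a list of signalling ligand families, 3 (3.95%, beside 1.19% of all genes) started in 2 short domains, and 5 (6.58%, beside 4.15%) in long ones. The list was drawn by family and so holds FGF12, which is not a classical secreted ligand, and the secreted FGF23 and FGF6 lay in 1 domain. FGF12 lay in a domain of 48 kb (chromosome 3, 192746001 to 192794000) that nearly matched the domains of 49 kb in Clone 3 and 50 kb in Clone 6, with 8.17 CpGs per kb and 8.50 at the start, and the run printed above is from this start. FGF23, a hormone of phosphate balance, and FGF6 shared a domain of 93 kb with 12.6 CpGs per kb on chromosome 12. Of 14 secreted WNT antagonists 1 started in a short domain and 1 in a long one. This was SFRP1, which was also the only one of 18 markers of colorectal cancer methylation in a short domain, with 2 in long ones. It lay in a domain of 40 kb (chromosome 8, 41298001 to 41338000) at the end of 124 kb in Clone 3 and within 42 kb in Clone 6, with 83.5 CpGs per kb at the start. Of 58 neurotransmitter-gated channel genes 4 started in long domains and 1 in a short one, HTR3A, a subunit of the serotonin-gated channel, whose start lay just inside the edge of a domain of 59 kb within 448 kb in Clone 6.

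Olfactory receptors were the most numerous family. Of 399 genes 29 (7.27%, beside 1.19% of all genes) started in 16 short domains, and 117 (29.3%, beside 4.15%) in long ones. Neighbouring receptor genes share a domain, so the genes are not independent. OR11G2, OR52B2, OR2Z1 and OR9K2 were each alone near the centre of domains of 38, 37, 33 and 40 kb with 7.71, 6.43, 12.8 and 5.47 CpGs per kb. At their starts CpG density was 4.00, 8.50, 3.50 and 6.50 per kb, all far under the 45.5 of all genes, and the OR11G2 run above holds 1 CpG. OR52B2 was a whole Clone 3 domain within 498 kb in Clone 6, and OR9K2 a whole Clone 6 domain within 51 kb in Clone 3. The most coding starts in a short domain was 5, found on chromosome 17 (3373001 to 3455000) for OR1E1, OR1E2, OR1R1P, OR3A2 and OR3A3, and on chromosome 20 (45461001 to 45550000) for EPPIN, the readthrough gene EPPIN-WFDC6, SPINT3, WFDC2 and WFDC6.

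Several other tandem families were found in short domains, and these lists were drawn up after the values were seen, so their counts stand beside 1.19% of all genes as a description only. All 5 CD1 genes and 3 of 5 beta-globin cluster genes (HBB, HBD and HBG1, the adult and fetal globins of red cells) started there. The globin genes shared a domain of 35 kb with 7.20 CpGs per kb, within 36 kb in Clone 3 and at the end of 860 kb in Clone 6. On chromosome 20, 10 of 19 genes of the WFDC, semenogelin and related protease inhibitors started in 4 short domains, among them SEMG1 and SEMG2 (85 kb), the main proteins of the semen coagulum, and SLPI (18 kb), an inhibitor of leukocyte elastase. Also on chromosome 20 were 3 of 40 beta defensins, DEFB118, DEFB119 and DEFB121, in 1 domain of 89 kb, and BPIFA1, BPIFA3 and BPIFB1 of the BPI fold family, of which 4 of 9 genes started in short domains. Immune receptors included 3 of 12 SIGLEC genes (SIGLEC5, SIGLEC10 and SIGLEC14), 3 of 5 signal regulatory proteins (SIRPB1, SIRPB2 and SIRPD) and 3 of 17 chemokine receptors (CCR6, CCR8 and CX3CR1). SCNN1B and SCNN1G, 2 of the 4 subunits of the epithelial sodium channel, lay in separate domains of 16 and 68 kb within 206 kb in Clone 6. HSD3B1 and HSD3B2, enzymes of steroid synthesis and 2 of the 3 genes of their list, lay in separate domains of 39 and 46 kb. Of 22 CEACAM and PSG genes 3 started in short domains (CEACAM1, CEACAM3 and PSG3) and 7 in long ones, beside 4.15% of all genes in long domains.

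Housekeeping and lineage lists had no member in short domains. The counts were 0 of 17 housekeeping genes, 0 of 23 intestinal epithelial markers and 0 of 36 genes of the Polycomb and DNA methylation machinery. The long shared domains held 0, 1 and 0 of these. The short domains also held 0 of 496 zinc finger genes with a ZNF symbol (WT1 is not on that list), 0 of 53 clustered protocadherins and 0 of 149 keratins and keratin-associated proteins, while the clone-shared H3K9me3 domains held 207, 36 and 31 of them, beside 647 of all 19111 genes (3.39%). Beside 1.19% of all genes most of these lists are short, and nothing is read from their zeros. RNA was not measured in these samples, so whether the genes in short domains were expressed was not analysed here.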

How the data were processed

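The authors trimmed read pairs with Trim Galore 0.5.0, aligned them to hg38 with Bowtie2 2.3.5, removed duplicates with samblaster and called broad domains with Enriched Domain Detector at default settings. They deposited domain positions in whole kb for each clone and mark, keeping what the calls of its biological replicates had in common, and for overlaps between the clones. The deposited clone sets carry 2 unnamed scores per domain, and the scores were used to rank short domains for an alternative and to find neighbouring domains with an equal score. The study's methods state a minimum depth per library, and the depth of each library cannot be read from domain sets.

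Each short shared domain was matched to the Clone 3 and Clone 6 domains that contain it. CpGs, GC and islands (union of 200 bp windows with at least 50% GC and a ratio of 0.6, or the strict form) were computed from hg38 over 2756.3 Mb of gap-free chromosomes 1 to 22. Genes were from GENCODE 44, with the start of the gene record as the start site. Clone 6 H3K9me3 entered only through the clone-shared H3K9me3 set, and its own samples were not analysed here. The rule for named genes took up to 4 genes of each list that were alone in their domain, nearest its centre first, and the extreme domains. Some items that the rule named are not reported here. Members and lists were chosen with earlier results of these data known. Intervals are exact binomial. Alternatives changed the length limit, merging, chromosomes, islands, spacing, gene definition and score, and 1 joined domains of equal score. Python 3.11.15, numpy 2.4.6, pandas 2.3.3 and scipy 1.17.1 were used, and the procedures were tested on simulated data.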

Additional observations from a re-analysis of the deposited data

How the results depend on the processing

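Of 54 alternatives, 20 left the value within 1.5 times for a number or length, or within its 95% interval for a share, and 34 did not. A limit of 50 kb gave 611 domains and 18.2 Mb, and merging shared intervals no more than 20 kb apart gave 487 and 27.6 Mb. The share with a coding start was 13.1% at 50 kb, 25.9% merged, 20.5% for domains short in both clones, 20.8% for the upper 50% by score, 47.3% by gene bodies and 47.4% with all annotated genes. CpGs per kb were 9.87 at 50 kb, 9.42 at 150 kb, 9.58 from 20 kb, 10.4 merged, 9.56 without chromosome 19, 9.70 for short in both clones and 9.19 for the upper 50%. These last values exceed narrow counting intervals and differ by under 1 CpG per kb. Merging moved the value above the 10.1 of chromosomes 1 to 22. Low-density CpGs were 56.3% at 50 kb, 57.5% at 150 kb, 54.3% merged, 56.1% for short in both, 57.9% for the upper 50%, 40.0% at a spacing of 35 bp and 72.7% by the downstream CpG only. Domains with an island were 80.5% at 50 kb, 90.2% from 20 kb, 93.0% merged, 90.3% for the upper 50% and 26.7% with strict islands. Overlap with H3K9me3 was 0.325% for short in both and 4.64% within 100 kb. The first of these is 1 domain of 308, and its interval of 0.00822 to 1.80 holds the 0.807% of all short domains. The share short in both clones was 45.7% when matched domains under 150 kb counted, 11.0% at 50 kb, and 11.9% when neighbouring domains with an equal score were joined, an alternative chosen after seeing the data. The cause of these shifts was not tested beyond the changed definition. No paired analysis was possible because the deposited sets hold no positions per replicate and no value comes from a test. Depth per library is not in the sets, and leaving out a replicate was not possible for the same reason.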
